A study of Mus musculus with 21 samples.

Results

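Maob, Maoa and Aldh2 encode the enzymes that convert the neurotoxin MPTP and take dopamine apart, and they were followed here in the nigral midbrain of mice given MPTP and irisin. The 3 genes were chosen by what their enzymes do, with earlier results of these data known but no measured value in the rule, and all 3 were found in both count tables, out of 55592 genes listed in the series as a whole. RNA-seq was available for 21 male C57BL/6 mice, labelled as 6 weeks old, in 7 groups of 3, and every injection was intraperitoneal. In the pre-treatment experiment, control mice received ddH2O for 10 days, MPTP mice received ddH2O for 5 days and then MPTP at 30 mg/kg per day for 5 days, and irisin-MPTP mice received irisin at 200 μg/kg per day for 5 days before the same course of MPTP. In the delayed treatment experiment, control mice again received ddH2O for 10 days, irisin mice received 5 days of ddH2O followed by 5 days of irisin, MPTP mice received 5 days of MPTP followed by 5 days of ddH2O, and MPTP-irisin mice received 5 days of MPTP followed by 5 days of irisin. No genetic change is named for any group. Irisin is a hormone released from muscle during exercise, and MPTP is the toxin most used to model Parkinson's disease in mice. MPTP was therefore last given at the end of the schedule in the first experiment and 5 days earlier in the second, and the tissue was dissected by hand, so each library mixed all the cell types of the nigral region.

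Monoamine oxidases sit on the outer membrane of mitochondria and remove the amine group of dopamine, serotonin and noradrenaline. Monoamine oxidase B, from Maob, is known mainly from astrocytes and serotonergic neurons, and it oxidises MPTP to the ion MPP+, which the dopamine transporter then carries into dopaminergic neurons. Monoamine oxidase A, from Maoa, is known mainly from catecholaminergic neurons and prefers serotonin and noradrenaline. Both enzymes turn dopamine into the reactive aldehyde DOPAL, which the mitochondrial aldehyde dehydrogenase encoded by Aldh2 oxidises to the acid DOPAC.

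Maob (ENSMUSG00000040147) lies on the minus strand of chromosome X at 16709282 to 16817366, and Maoa (ENSMUSG00000025037) lies on the plus strand at 16619698 to 16687818, in the coordinates of the count tables, which are those of GRCm38. The 2 genes end towards each other with 21463 bases between them. Aldh2 (ENSMUSG00000029455) lies on the minus strand of chromosome 5 at 121566027 to 121593824. The longest protein-coding transcripts in GENCODE vM21 have 2411 bases in 15 exons for Maob, 4167 bases in 15 exons for Maoa and 3867 bases in 13 exons for Aldh2. Since Maob and Maoa are copies of one ancestral gene, their coding sequences were compared, and 69.3% of alignment positions, gaps included, held the same base. Their longest shared run, 35 bases inside exon 12 of both, is printed here in capitals with 20 bases on either side, because a read that lay wholly inside such a run could belong to either gene:
Maoa: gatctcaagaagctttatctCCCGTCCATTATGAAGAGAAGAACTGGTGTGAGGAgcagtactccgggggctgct
Maob: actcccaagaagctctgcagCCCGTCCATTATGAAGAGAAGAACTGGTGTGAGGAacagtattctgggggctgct
The capitals are coding bases 1165 to 1199 of Maoa and 1138 to 1172 of Maob, and the flanks already differ between the genes. Aldh2 shared no run longer than 12 bases with either oxidase transcript. At its 5′ end Aldh2 is overlapped over 130 bases by Gm42879, a gene on the opposite strand. Gm42879 held 4 to 35 reads in the pre-treatment and 0 to 26 in the delayed treatment mice, against 6159 to 7871 and 5642 to 8878 for Aldh2. Whether the counting used strand is not given in the sources used here.

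Total counts ranged from 66653781 to 75637604 per mouse in the pre-treatment and from 48843585 to 77203445 in the delayed treatment experiment. The 3 enzyme genes each had 1923 to 8878 reads in every mouse, so the differences between mice below are mostly not set by counting. The 2 experiments came as separate tables and were never fitted together, so levels in one are set beside levels in the other without a test. Values for 1 gene across mice are given as CPM, read counts brought to a common library size with the trimmed mean scaling (TMM) of edgeR, and levels between genes are given per length, as the FPKM values of the authors. Nothing in the labels says how mice were housed or processed together, and the p-values measure the spread between these 21 mice. Among the markers of dopaminergic neurons, Th, Slc6a3, Slc18a2, Ddc, Nr4a2 and En1 were detected in every mouse, and Pitx3 was at 0 in 2 pre-treatment mice and 1 delayed treatment mouse. The 3 choroid plexus markers Ttr, Kl and Folr1 varied most of the 9 marker lists, with a summed level of 1593 CPM in MPTP replicate 2 of the pre-treatment experiment against 6.44 to 21.6 CPM in its other mice, and of 32.8 to 1609 CPM in the delayed treatment mice. In bulk tissue of this kind, fewer cells of a type and less RNA per cell cannot be told apart.

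The 3 genes were transcribed at similar levels per length. In the pre-treatment experiment, FPKM averaged 14.5 for Maob (range 10.999 to 18.03 over 9 mice), 18.1 for Maoa (17.0 to 19.7) and 16.8 for Aldh2 (15.5 to 18.5). In the delayed treatment experiment, FPKM averaged 14.4 for Maob (11.3 to 18.4 over 12 mice), 15.3 for Maoa (14.0 to 17.1) and 20.5 for Aldh2 (17.6 to 22.2). Aldh2 was therefore the highest of the 3 in the second table and Maoa in the first. Within single mice, Aldh2 exceeded both oxidases in 12 of 12 delayed treatment mice, whereas Maoa exceeded Aldh2 in 7 of 9 pre-treatment mice. Aldh2 exceeded Maob in 8 of 9 pre-treatment mice.

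The order of neighbouring levels often did not hold up against the spread between mice. In the pre-treatment experiment all 3 groups had the order Maoa, Aldh2, Maob by mean FPKM. Maoa and Aldh2 overlapped in the control mice and the irisin-MPTP mice but not in the MPTP mice. Aldh2 and Maob overlapped in the MPTP mice and the irisin-MPTP mice but not in the control mice. In the delayed treatment experiment Aldh2 stood apart from the gene below it in all 4 groups, and Maoa and Maob overlapped in all 4. The plot of FPKM by mouse shows this order.

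**Figure D1:**
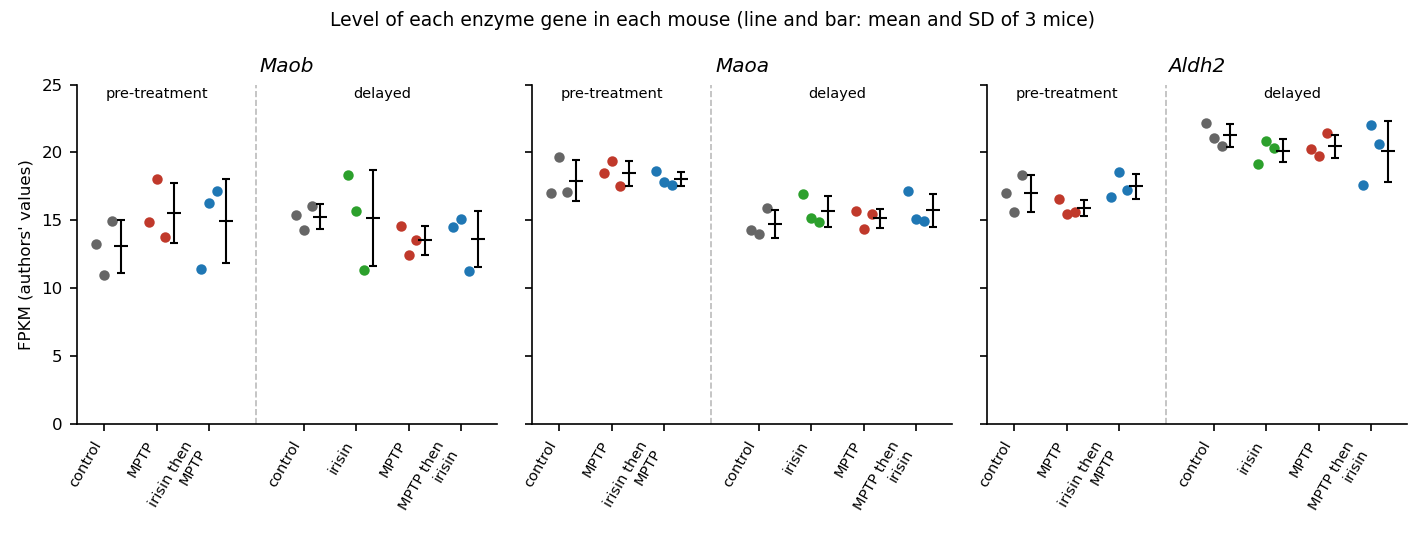
FPKM (authors' values, vertical axis from 0) of Maob, Maoa and Aldh2 in each of 21 mice by group, with the pre-treatment experiment left and the delayed treatment experiment right of the dashed line; points are mice, and the line and bar are the mean and SD of 3 mice. Maob points spread most within a group, from 11.3 to 18.4 FPKM in the delayed irisin mice, and Aldh2 lies above both oxidases in the delayed treatment experiment.

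Monoamine oxidase B, the MPTP-activating enzyme, was measured first. In the pre-treatment experiment the Maob level was 41.4, 35.5 and 46.4 CPM in control replicates 1, 2 and 3. It was 46.8, 55.9 and 43.5 CPM in the MPTP mice. It was 36.3, 51.0 and 53.5 CPM in the irisin-MPTP mice. The 3 groups overlapped, and control replicate 2 and irisin-MPTP replicate 1 were the lowest of the 9 mice. Among delayed treatment mice the Maob level was 48.9, 45.1 and 51.2 CPM in the control mice and 57.7, 48.9 and 36.0 CPM in the irisin mice. It was 45.5, 38.9 and 42.2 CPM in the MPTP mice and 45.1, 47.7 and 35.4 CPM in the MPTP-irisin mice. The highest and nearly the lowest Maob levels of this experiment were both found in mice given irisin alone.

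Maoa, the other oxidase, was steadier. Its level was 79.6, 94.8 and 79.1 CPM in the pre-treatment control mice, 86.7, 89.8 and 83.0 CPM in the MPTP mice and 88.6, 83.6 and 82.1 CPM in the irisin-MPTP mice. The 3 MPTP and the 3 irisin-MPTP mice lay inside the range of the 3 control mice. Among delayed treatment mice the Maoa level was 67.8, 66.2 and 75.7 CPM in the control mice and 79.7, 70.6 and 70.2 CPM in the irisin mice. It was 73.0, 66.9 and 72.0 CPM in the MPTP mice and 79.7, 71.1 and 70.4 CPM in the MPTP-irisin mice. All 4 groups overlapped each other.

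Aldh2, which clears the dopamine aldehyde, had the levels 97.6, 92.7 and 104.6 CPM in the pre-treatment control mice and 95.6, 88.2 and 91.0 CPM in the MPTP mice. It had 97.9, 106.8 and 98.6 CPM in the irisin-MPTP mice. All 3 irisin-MPTP mice lay above all 3 MPTP mice, the nearest pair being 97.9 and 95.6 CPM. Aldh2 in the delayed treatment mice had 129.4, 122.3 and 119.9 CPM in the control mice and 110.9, 119.3 and 118.5 CPM in the irisin mice. It had 116.1, 113.3 and 122.7 CPM in the MPTP mice and 100.8, 127.8 and 119.0 CPM in the MPTP-irisin mice. The 3 irisin mice lay just below the 3 control mice, and the MPTP-irisin mice spanned most of the range of the experiment.

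MPTP against control asks whether the toxin altered transcripts of the enzymes that handle it. No enzyme gene passed an adjusted p of 0.05 in the pre-treatment experiment by the quasi-likelihood test of edgeR, with p adjusted over all tested genes after Benjamini and Hochberg, where 0.0221% of 22641 genes did. The log2 fold change of Maob was 0.25 ± 0.17 (SE; adjusted p = 0.882 by edgeR), a difference of 18.6% with a 95% interval from -8.88% to 54.3%. For Maoa it was 0.03 ± 0.08 (adjusted p = 0.982 by edgeR), with an interval of the difference from -10.1% to 16.7%. For Aldh2 it was -0.10 ± 0.07 (adjusted p = 0.882 by edgeR), with an interval from -16.4% to 3.92%. The groups overlapped for all 3 genes, where they did not overlap for 11.6% of all genes tested. Without MPTP replicate 2, the mouse with the high choroid plexus markers and the highest Maob, the log2 fold change of Maob was 0.14 ± 0.18 (adjusted p = 0.995 by edgeR).

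The same comparison in the delayed treatment experiment, with 5 days between the last MPTP dose and the end of the schedule, called none of the 3 genes by edgeR, against 0.132% of 21922 genes. The log2 fold change of Maob was -0.20 ± 0.16 (adjusted p = 0.801 by edgeR), a difference of -12.9% with an interval from -31.7% to 11.1%. Maoa had 0.02 ± 0.08 (adjusted p = 0.984 by edgeR) and an interval from -10.5% to 14.1%. Aldh2 had -0.08 ± 0.08 (adjusted p = 0.858 by edgeR) and an interval from -16.2% to 7.02%. The groups overlapped for all 3 genes, where 16.2% of all genes did not overlap.

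Irisin given before MPTP was compared with MPTP alone to see whether pre-treatment altered the same transcripts. Again none of the 3 genes was called by edgeR, against 0.0707% of 22641 genes. The largest of the 3 differences was in Aldh2, with a log2 fold change of 0.14 ± 0.07 (unadjusted p = 0.0713, adjusted p = 0.849 by edgeR). It amounted to 10.3%, with an interval from -1.05% to 23.0%. Aldh2 was the only one of the 3 whose groups did not overlap, and 14.2% of all genes did not overlap in this comparison. Maob had -0.05 ± 0.17, or 0.05 ± 0.18 without MPTP replicate 2, and, with all mice, an interval from -26.0% to 25.3%, and Maoa had -0.03 ± 0.08 with an interval from -14.0% to 11.6%.

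Irisin alone was set against control in mice that had received no MPTP. None of the 3 genes was called by edgeR, against 0.109% of 21922 genes. For Aldh2 the log2 fold change was -0.09 ± 0.08 (adjusted p = 0.767 by edgeR), with an interval from -17.0% to 6.02%. Its groups did not overlap, as was the case for 15.1% of all genes. Maoa had 0.07 ± 0.08 with an interval from -6.83% to 18.7%, and Maob had -0.03 ± 0.16 with an interval from -23.0% to 25.2%. The Maob mean hid a wide group, in which replicate 1 had 57.7 and replicate 3 had 36.0 CPM.

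Irisin given after MPTP was compared with MPTP followed by ddH2O. None of the 3 genes was called by edgeR, against 0.00456% of 21922 genes, which was 1 gene. The log2 fold changes were 0.02 ± 0.16 for Maob, 0.06 ± 0.08 for Maoa and -0.02 ± 0.08 for Aldh2. Their intervals ran from -20.6% to 29.3%, from -7.52% to 17.8% and from -12.6% to 11.6%. The groups overlapped for all 3, where 10.7% of all genes did not overlap. The interaction, which asks whether irisin acted differently with and without preceding MPTP, was 0.05 ± 0.23 for Maob, -0.01 ± 0.11 for Maoa and 0.07 ± 0.11 for Aldh2, and none was called by edgeR, against 0.0411% of 21922 genes.

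In all, 0 of 18 tests of the 3 genes passed by edgeR, 0 had an unadjusted p under 0.05, and the counts were 0 and 0 also by DESeq2 and by limma on log2(FPKM + 1). Among all genes, an unadjusted p under 0.05 by edgeR was found for 6.03% and 8.33% with MPTP in the pre-treatment and delayed treatment experiments, 6.22% with irisin before MPTP, 8.97% with irisin alone, 3.9% with irisin after MPTP and 5.57% for the interaction. These tests do not show that the transcripts stayed level. Over the 5 comparisons between groups, the outermost bounds of the intervals were -14.0% and 18.7% for Maoa, -17.0% and 23.0% for Aldh2, and -31.7% and 54.3% for Maob. The plot of fold changes with their intervals shows the wider intervals of Maob.

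**Figure D2:**
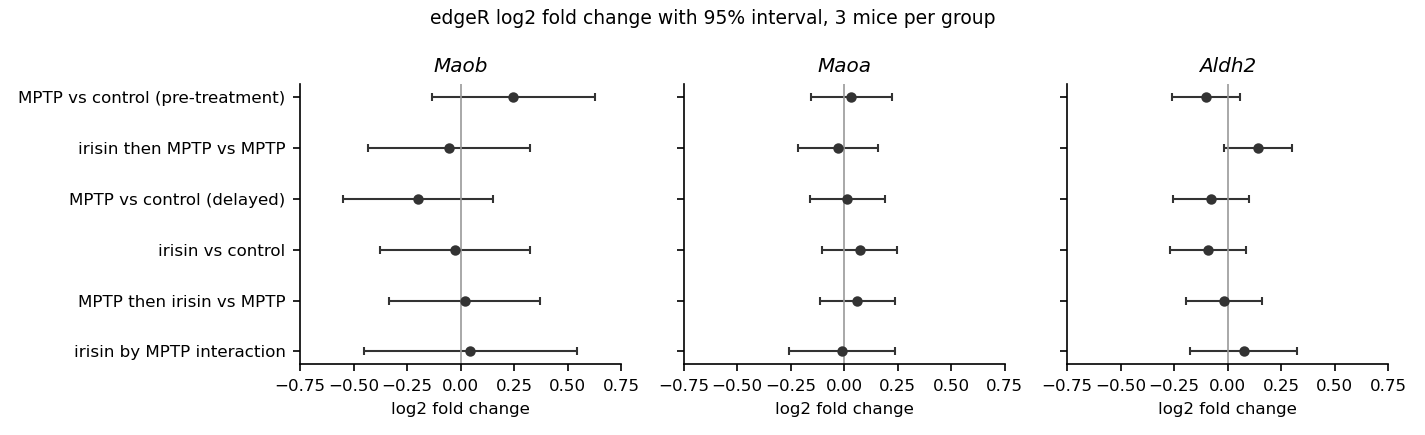
edgeR log2 fold change (horizontal axis) of Maob, Maoa and Aldh2 in 6 comparisons, 3 mice per group; points are estimates and bars are 95% intervals. All 18 intervals include 0, and those of Maob are the widest.

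The effect of MPTP itself was compared between the experiments, which differ in the days since the last dose. For Maob the mean difference in log2 CPM between MPTP and control mice was -0.20 in the delayed and 0.25 in the pre-treatment experiment. The 2 effects differed by -0.45 (exact two-sided permutation test over 400 relabelings, p = 0.02), and this did not pass after Benjamini-Hochberg adjustment over the 6 relations tested (adjusted p = 0.12, exact permutation test). Labels were permuted within each experiment, so the p refers to no MPTP effect in either experiment, not to equal effects in both. Without MPTP replicate 2 of the pre-treatment experiment the difference was -0.34 (adjusted p = 0.36, exact permutation test). The summed CPM of 3 lists of markers, serotonergic neuron, noradrenergic neuron and choroid plexus, had differences of the same signs as Maob in both experiments. The sums of the other lists, astrocyte, dopaminergic neuron, oligodendrocyte, microglia, endothelial cell and neuron, did not. The 3 lists are named here because of those signs. The serotonergic sum averaged 127 in MPTP and 59.2 in control mice of the pre-treatment experiment, and 107 and 139.5 in those of the delayed treatment experiment, the noradrenergic sum 35.1 against 24.5 and 54.0 against 55.5, and the choroid plexus sum 536 against 9.11 and 537 against 1001. By mouse, the pre-treatment serotonergic sum was 37.7, 272 and 70.3 CPM in MPTP replicates 1, 2 and 3. It was 40.5, 17.9 and 119 CPM in control replicates 1, 2 and 3. The choroid plexus sum of the pre-treatment MPTP mice ranged from 6.86 to 1593 CPM, the highest value being that of replicate 2. The pre-treatment MPTP means of these 2 lists therefore leaned on replicate 2. Across mice, the correlation r of Maob with the noradrenergic sum was -0.0065 in the pre-treatment and -0.51 in the delayed treatment experiment. With the choroid plexus sum it was 0.59 and -0.19. The part of the cells of the 3 lists in the Maob difference was not tested. For Maoa and Aldh2 the effects of MPTP differed by -0.02 and 0.02 between experiments (adjusted p = 0.845 for each, exact permutation test). The effects of irisin in MPTP mice differed by 0.08 for Maob, 0.09 for Maoa and -0.17 for Aldh2, with adjusted p = 0.845, 0.62 and 0.615 in the same exact permutation test.

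The balance of the 2 oxidases was followed as the ratio of Maob to Maoa FPKM within a mouse, which does not depend on library scaling. It was below 1 in 9 of 9 pre-treatment mice, where it ranged from 0.56 to 0.974, and above 1 in 6 of 12 delayed treatment mice, where it ranged from 0.752 to 1.08. The ratio in the delayed treatment experiment averaged 1.04 ± 0.036 (SD, n = 3) in control and 0.892 ± 0.033 in MPTP mice. These 2 groups did not overlap, since the control mice began at 1.01 and the MPTP mice ended at 0.93. The log2 difference was -0.22, with p = 0.1 in an exact permutation test, the smallest p that 3 against 3 mice allow, and adjusted p = 0.5 over 5 comparisons. The other 4 comparisons of the log2 ratio gave differences of 0.21, -0.04, -0.12 and -0.05, each with adjusted p = 0.9 (exact permutation tests).

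Maob varied more between mice of a group than the other enzymes. Its SD within groups was 0.23 (pre-treatment) and 0.22 (delayed) in log2 CPM, above that of 79.4% and 80.3% of genes with a mean of at least 10 CPM. For Maoa the SD was 0.10 and 0.09, above that of 32.6% and 31.6% of those genes. For Aldh2 it was 0.07 and 0.10, above 16.3% and 36.3%. The median gene had 0.13 and 0.12. Between the lowest and the highest mouse Maob differed by 1.57-fold and 1.63-fold, against 1.199-fold and 1.205-fold for Maoa and 1.21-fold and 1.28-fold for Aldh2.

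The spread of Maob was set beside the summed levels of the marker lists, of which the serotonergic neuron list had the largest correlation with it in each experiment, without passing the adjustment. The 3 markers were Tph2, the enzyme that starts serotonin synthesis in neurons, Slc6a4, the serotonin transporter, and Fev, a transcription factor of these neurons. Their summed level ranged from 17.9 to 272 CPM in the pre-treatment and from 35.9 to 209.6 CPM in the delayed treatment mice. Control replicate 2, with the lowest Maob of the pre-treatment experiment, had the lowest sum, 17.9 CPM, and MPTP replicate 2, with the highest Maob, had the highest sum, 272 CPM. In the delayed treatment experiment the 2 mice with the lowest Maob, MPTP-irisin replicate 3 and irisin replicate 3, had sums of 36.1 and 38.8 CPM. Other mice of that experiment went against this. MPTP-irisin replicate 1 had the lowest sum, 35.9 CPM, and a Maob level of 45.1 CPM, MPTP replicate 1 had the highest sum, 209.6 CPM, and a Maob level of 45.5 CPM, and irisin replicate 1 had the highest Maob, 57.7 CPM, at a sum of 115 CPM.

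Across mice, Maob and this sum had Pearson's r of 0.86 over 9 pre-treatment mice (permutation p = 0.00359; adjusted p = 0.161, permutation test) and 0.74 over 12 delayed treatment mice (permutation p = 0.00537; adjusted p = 0.161). Spearman's rho was 0.75 (permutation p = 0.0255; adjusted p = 0.306) and 0.73 (permutation p = 0.00887; adjusted p = 0.253). Without the 2 mice farthest from the median sum, r was 0.69 and 0.76, and for deviations from the group means it was 0.84 and 0.73. The adjustment covers 60 relations, all pairs of the 3 enzymes and each enzyme with each of 9 marker sums in both experiments, and none of the 60 had an adjusted p under 0.05. With the summed level of 9 astrocyte markers, the other cell type known for Maob, r was -0.54 and -0.24 and rho -0.48 and -0.20 (adjusted p of r = 0.413 and 0.709, permutation tests). With the sum of 7 dopaminergic neuron markers, r was 0.41 and 0.62 and rho 0.22 and 0.71 (adjusted p of r = 0.513 and 0.310, permutation tests), falling to 0.05 and 0.33 without the 2 mice farthest from the median. None of the 3 serotonergic markers was called in any of the 6 comparisons by edgeR or DESeq2, and the part of these cells in the Maob values was not tested. The plot of Maob against the sum shows all 21 mice.

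**Figure D3:**
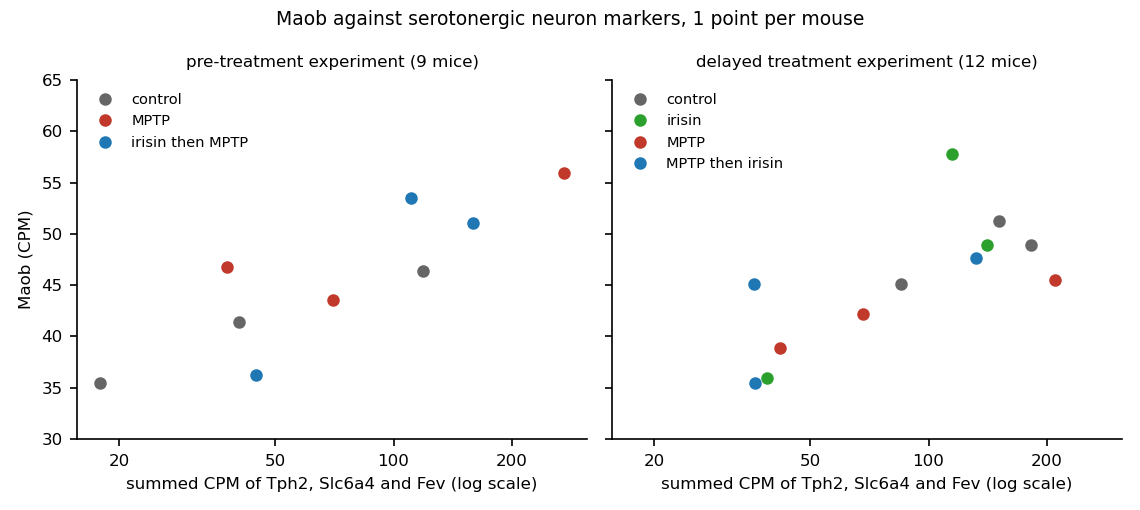
Maob level (CPM, vertical axis from 30 to 65) against the summed CPM of Tph2, Slc6a4 and Fev (log axis) for each mouse, coloured by group, in the pre-treatment (left, 9 mice) and delayed treatment experiment (right, 12 mice). Maob is lowest, at 35.5 CPM, in the mouse with the smallest sum of the left panel, while in the right panel the mouse with the smallest sum, 35.9, and the mouse with the largest, 209.6, have 45.1 and 45.5 CPM.

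Maoa and Aldh2 tended to go opposite ways between mice, with r of -0.56 over the pre-treatment and -0.64 over the delayed treatment mice (permutation p = 0.116 and 0.0236; adjusted p = 0.413 and 0.310). Spearman's rho was -0.53 and -0.39 (permutation p = 0.148 and 0.210; adjusted p = 0.650 and 0.701). Without the 2 mice farthest from the median Maoa level, r was -0.28 and -0.07, so the relation rested on those mice. Maob and Maoa had r of -0.34 and 0.48 and rho of -0.13 and 0.45 (adjusted p of r = 0.616 and 0.413, permutation tests), of opposite sign in the 2 experiments. Maob and Aldh2 had r of 0.08 and -0.00 and rho of 0.08 and 0.16 (adjusted p of r = 0.936 and 0.995, permutation tests).

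Among 21153 genes tested in both experiments, the genes most like each enzyme were ranked by the smaller of the 2 correlations of log2 CPM across mice. These values are descriptions over 9 and 12 mice whose libraries come from the same dissections. For Maob they were Irs4, an adaptor of insulin receptor signalling (r = 0.89 and 0.95), Ak7, an adenylate kinase (0.89 and 0.91), and Efcab1, a calcium-binding protein (0.88 and 0.94). In both experiments 15 genes reached 0.8, none of which is in a marker list. Beside the 3 named, they were Fam216b, Vwa5b1, Rsph4a, Ccdc153, Cartpt, Asb4, AW551984, Vwa3a, Scg2, Lrrc23, Togaram2 and Wdr66. The marker lists do not cover every cell type, ependymal cells among those left out. Which cells express these 15 genes was not tested. Irs4 ranged from 10.9 to 23.9 CPM and from 9.53 to 27.9 CPM, and after removal of the group means its r was 0.87 and 0.95. Without the 2 mice farthest from the median of the other gene, r of the 3 genes was 0.77 to 0.81 (pre-treatment) and 0.83 to 0.93 (delayed). The plot of the 4 profiles shows that the shared highs and lows fell within groups as well as between them.

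**Figure D4:**
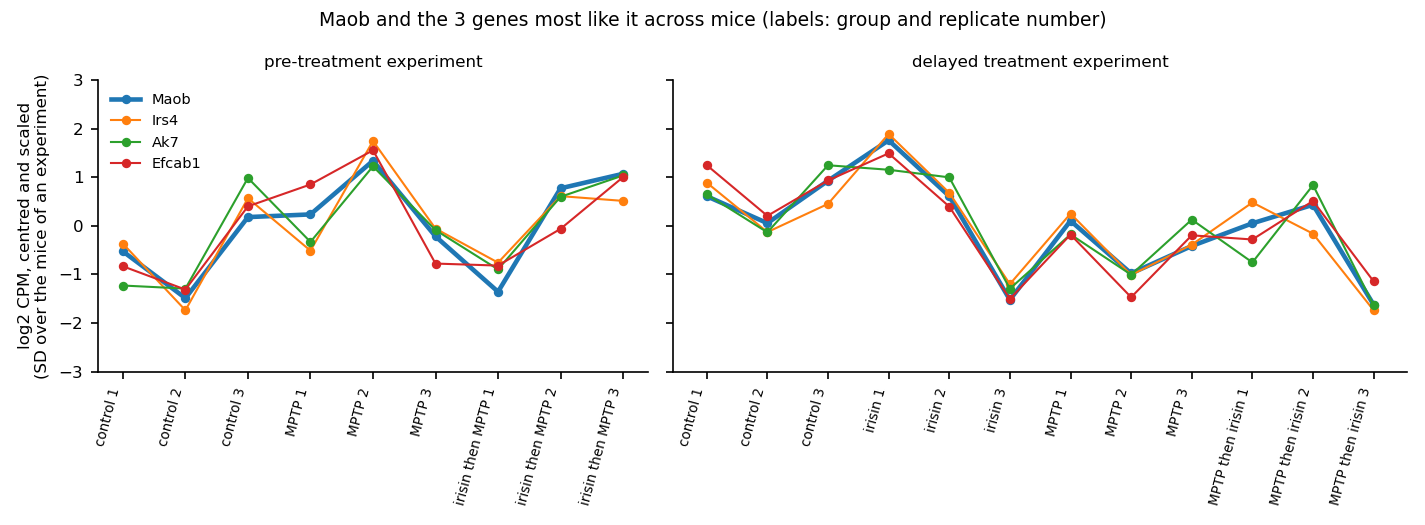
log2 CPM of Maob (thick line) and of Irs4, Ak7 and Efcab1, centred and scaled by the SD over the mice of each experiment (vertical axis), by group and replicate. The 4 genes are low together in pre-treatment control replicate 2, delayed irisin replicate 3 and MPTP-irisin replicate 3, and high together in pre-treatment MPTP replicate 2 and delayed irisin replicate 1; lines join mice only for the eye.

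For Maoa the nearest genes were Ccdc171, a coiled-coil protein (r = 0.80 and 0.76), Ncam2, a cell adhesion molecule of neurons (0.79 and 0.75), and Bmpr2, a receptor for bone morphogenetic proteins (0.75 and 0.79), and 0 genes reached 0.8 in both experiments. For Aldh2 they were Ifi35, an interferon-induced protein (0.91 and 0.92), Cdc37, a partner of the chaperone Hsp90 (0.84 and 0.88), and Tecr, an enzyme of long-chain fatty acid synthesis (0.82 and 0.86), and 4 genes reached 0.8 in both. Ifi35 was a low gene, at 1.58 to 4.41 CPM, while Cdc37 and Tecr lay between 121 and 440.3 CPM. Without the 2 mice farthest from the median of the other gene, r was 0.62 and 0.52 for Ccdc171, 0.59 and 0.66 for Ncam2, 0.94 and 0.67 for Bmpr2, 0.86 and 0.90 for Ifi35, 0.72 and 0.68 for Cdc37, and 0.77 and 0.55 for Tecr.

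Other genes of dopamine breakdown and MPTP handling were examined as a list of 17: the oxidase Rnls, 5 aldehyde dehydrogenases, 2 aldehyde reductases, the sulfotransferase Sult1a1, 2 enzymes of MPTP detoxification and 6 transporters of dopamine or MPP+. All 17 were tested in both experiments, and 0 of 102 tests passed by edgeR, 0 by limma and 2 by DESeq2. Unadjusted p-values under 0.05 were found in 10 of the 102 by edgeR, 9 by DESeq2 and 9 by limma. Among all genes tested, the share with an unadjusted p under 0.05 by edgeR was 3.9% to 8.97% over the 6 comparisons. DESeq2 called 32 to 179 genes per comparison, of 22769 to 25860 with an adjusted p. The median log2 fold change of the list was -0.03 and -0.08 for MPTP against control in the pre-treatment and delayed treatment experiments, -0.01 for irisin before MPTP, -0.14 for irisin alone and -0.08 for irisin after MPTP, while the median of all genes tested lay between -0.0023 and 0.0031.

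Sult1a1, which sulfates phenols and catechols, had the largest positive difference of the list. Its level averaged 7.48 ± 2.53 CPM (SD, n = 3) in control, 11.3 ± 1.11 in MPTP and 23.2 ± 4.44 in irisin-MPTP mice of the pre-treatment experiment. The irisin-MPTP mice, from 19.0 to 27.9 CPM, did not overlap the others. The MPTP mice, from 10.48 to 12.52 CPM, also lay above the control mice, from 5.58 to 10.36 CPM. Between the irisin-MPTP and the MPTP mice, 14.2% of all genes tested did not overlap, and between the MPTP and the control mice, 11.6%. MPTP against control gave a log2 fold change of 0.59 ± 0.23 (unadjusted p = 0.0336, adjusted p = 0.823 by edgeR). Irisin-MPTP against MPTP gave a log2 fold change of 1.04 ± 0.23 (unadjusted p = 0.00171, adjusted p = 0.343 by edgeR), and DESeq2 called it. Sult1a1 in the delayed treatment mice averaged 16.3 to 21.5 CPM over the 4 groups, and irisin after MPTP gave -0.12 ± 0.22 against MPTP.

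Slc6a3, the dopamine transporter that takes MPP+ into neurons, had lower means in MPTP than in control mice in both experiments. It averaged 90.0 ± 26.9 CPM in control, 56.3 ± 7.98 in MPTP and 30.4 ± 6.02 in irisin-MPTP mice (SD, n = 3), with log2 fold changes of -0.68 ± 0.23 for MPTP against control (unadjusted p = 0.0184 by edgeR) and -0.89 ± 0.23 for irisin-MPTP against MPTP (unadjusted p = 0.0045 by edgeR). DESeq2 called the latter and edgeR neither (adjusted p = 0.818 and 0.494 by edgeR). In the delayed treatment experiment it averaged 65.5 ± 2.34 CPM in control and 31.0 ± 19.99 in MPTP mice, with a log2 fold change of -1.08 ± 0.37 (unadjusted p = 0.0141, adjusted p = 0.458 by edgeR). The other dopaminergic markers did not all have the sign of Slc6a3. Over the 7 markers the median log2 fold change for MPTP was 0.16 in the pre-treatment and -0.58 in the delayed treatment experiment. Slc18a2, the vesicular monoamine transporter, had 0.26 ± 0.34 and -0.40 ± 0.24. In the pre-treatment experiment the sum of the 7 markers was 243, 472 and 252 CPM in MPTP replicates 1, 2 and 3. It was 246, 342 and 409 CPM in the control mice. Replicate 2 thus weighed most in the MPTP mean. Whether RNA of these markers came only from dopaminergic neurons was not tested.

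Among the remaining enzymes, Cyp2d22, a cytochrome P450 that detoxifies MPTP, had a log2 fold change of 0.23 ± 0.07 for irisin before MPTP (unadjusted p = 0.00815, adjusted p = 0.559 by edgeR). Its value was -0.24 ± 0.12 for irisin alone and 0.02 ± 0.12 for irisin after MPTP. Aldh1a1, a cytosolic aldehyde dehydrogenase known from dopaminergic neurons, had -0.22 ± 0.07 for MPTP against control in the delayed treatment experiment (unadjusted p = 0.00966, adjusted p = 0.413 by edgeR), from 388 ± 11.1 to 332 ± 21.6 CPM. In the pre-treatment experiment it had -0.09 ± 0.18 (unadjusted p = 0.618, adjusted p = 0.979 by edgeR). Which cells supplied its RNA was not tested. Aldh9a1, an aldehyde dehydrogenase of aminoaldehydes, had -0.18 ± 0.08 for irisin alone (unadjusted p = 0.0361, adjusted p = 0.536 by edgeR), and Slc29a4, a low-affinity monoamine transporter, had -0.48 ± 0.13 in that comparison (unadjusted p = 0.00414, adjusted p = 0.395 by edgeR). Aldh7a1, an aldehyde dehydrogenase of lysine breakdown, had an interaction of 0.21 ± 0.09 (unadjusted p = 0.0394, adjusted p = 0.893 by edgeR). Per length, Akr1a1 (79.6 and 102 FPKM) and Aldh1a1 (63.2 and 62.6 FPKM) were the 2 genes of the list above Aldh2 in both experiments.

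**Figure D5:**
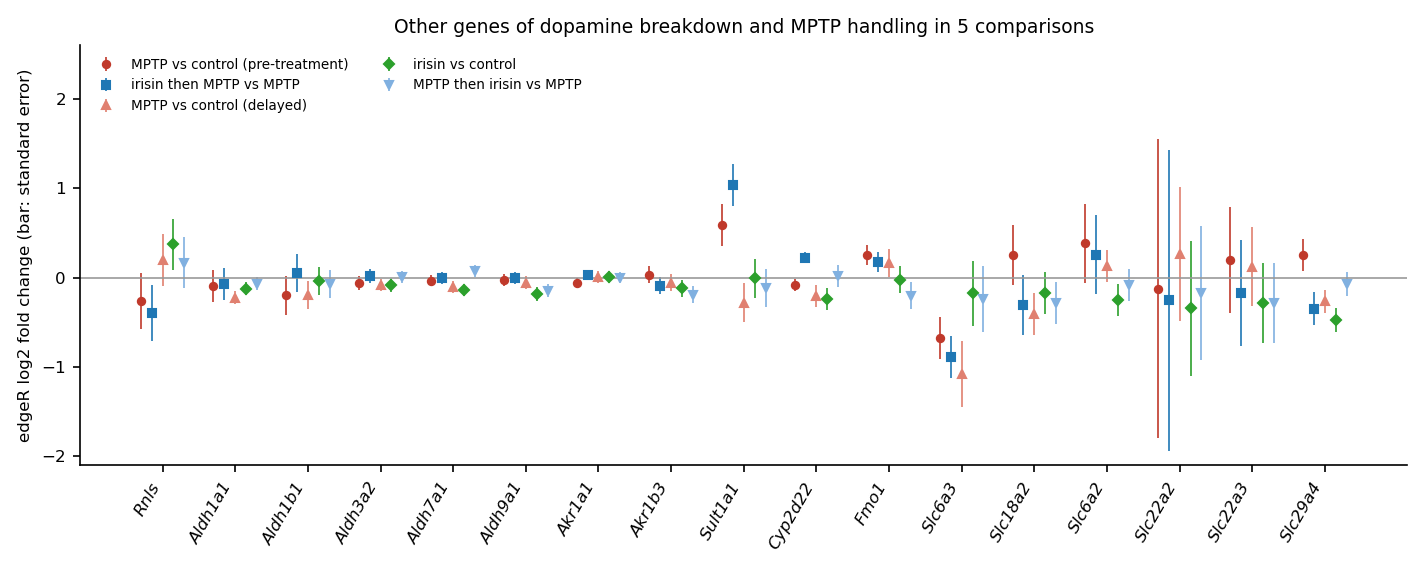
edgeR log2 fold change (vertical axis; bars are standard errors) of 17 other genes of dopamine breakdown and MPTP handling in 5 comparisons, 3 mice per group. Sult1a1 lies highest, at 1.04 for irisin then MPTP, and Slc6a3 lowest, at -1.08 for MPTP against control in the delayed treatment experiment; none passed an adjusted p of 0.05 by edgeR.

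Of the 9 lists of cell type markers, 39 genes in all, 0 of 234 tests passed by edgeR, 0 by limma and 5 by DESeq2, and 25, 21 and 23 had an unadjusted p under 0.05. The 5 calls of DESeq2 were lower Cldn5 and Cx3cr1 for MPTP and higher Cldn5 and lower Slc6a3 for irisin before MPTP in the pre-treatment experiment, and lower Th for MPTP in the delayed treatment experiment. Among all genes tested, the share with an unadjusted p under 0.05 by edgeR was 3.9% to 8.97% per comparison. Over all genes, DESeq2 called 32 to 179 per comparison, of 22769 to 25860 with an adjusted p. Whether the marker lists exceeded these shares was not tested.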

How the data were processed

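Nigral tissue of 21 mice was sequenced on an Illumina NovaSeq instrument. Reads per gene were counted by the authors with featureCounts. For each experiment the authors deposited 1 table of raw counts and FPKM by gene and mouse. The submitters' processing notes also name HISAT, StringTie, edgeR and the build mm9, without versions, but 91.9% and 94.2% of the matched genes had the coordinates of GRCm38 in GENCODE vM21, which were used here. FPKM followed from the deposited counts.

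Genes kept by filterByExpr (minimum count 10) were tested on raw counts with edgeR 4.0.16 in R 4.3.3, by the quasi-likelihood test with TMM scaling, all groups of an experiment in one fit and Benjamini-Hochberg adjustment over all genes tested; intervals are at 95%. DESeq2 1.42.0, limma 3.58.1 and leaving out each mouse were alternatives. Levels between experiments were compared only through within-experiment differences, with exact permutation tests in Python 3.11.15 that permuted labels within each experiment. Correlations used log2 CPM and exact or 100000-resample permutation tests. Scripts were tested on simulated data. Genes named beyond the 3 enzymes were the list genes with an unadjusted p under 0.05, the 3 genes most correlated with each enzyme, and markers. The members and lists were chosen with earlier results of these data known. Beyond the 17 list genes counted, 1 further gene is not reported here and is in no count of the list. Protein sequences were not used here.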

Additional observations from a re-analysis of the deposited data

Results flagged for a closer look

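The effect of MPTP on Maob differed in sign between the experiments, -0.20 in the delayed and 0.25 in the pre-treatment experiment in log2 CPM, a difference of -0.45 (exact two-sided permutation test, p = 0.02; adjusted p = 0.12 over 6 relations). It is listed here on its unadjusted p, a criterion chosen after seeing the values, and it did not pass the adjustment. The test takes as its null no MPTP effect in either experiment. Leaving out single mice gave differences from -0.54 to -0.34.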

How the results depend on the processing

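None of the 3 genes passed an adjusted p of 0.05 in any comparison under any alternative; their adjusted p ranged from 0.576 to 1 for Maob, from 0.592 to 1 for Maoa and from 0.617 to 1 for Aldh2. Of 480 alternative values, 438 kept their direction and side of the threshold and 42 changed sign, all 42 from leaving out 1 mouse, and none of these values was called. Median ratio scaling, no filter on low counts, 2 groups per fit, DESeq2 and limma changed no direction. Over the left-out mice, the log2 fold changes whose sign changed ranged from -0.0151 to 0.12 for Maoa with MPTP in the pre-treatment experiment, -0.16 to 0.10 for Maob with irisin before MPTP, -0.0226 to 0.0762 for Maoa with MPTP in the delayed treatment experiment, -0.19 to 0.14 for Maob with irisin alone, -0.0638 to 0.14 for Maob and -0.0924 to 0.0731 for Aldh2 with irisin after MPTP, and -0.12 to 0.21 for Maob, -0.0711 to 0.0511 for Maoa and -0.00128 to 0.16 for Aldh2 in the interaction. Differences between experiments ranged from -0.11 to 0.037 for Maoa and -0.0235 to 0.0641 for Aldh2 with MPTP, and from -0.0982 to 0.21 for Maob with irisin. The log2 ratio of Maob to Maoa ranged from -0.17 to 0.17 for irisin before MPTP, -0.22 to 0.032 for irisin alone and -0.16 to 0.0461 for irisin after MPTP. For Maob the mice behind the largest sign changes were irisin-MPTP replicate 1 (0.10 without it) and delayed irisin replicate 3 (0.14 without it). The cause was not tested.

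Same-numbered mice of different groups did not deviate together (median correlation -0.006 and -0.019 in the pre-treatment and delayed treatment experiments), and the main fits did not pair mice by number. Deviations from means of 3 mice cannot exclude a weak factor shared by same-numbered mice. With the replicate number as a block, Maob had log2 fold changes of 0.24 and -0.20 for MPTP in the 2 experiments, and no call of the 3 genes changed. Over all genes, the number called in the order of the report's 6 comparisons (MPTP pre-treatment, MPTP delayed, irisin before MPTP, irisin alone, irisin after MPTP, interaction) was 5, 29, 16, 24, 1 and 9 by edgeR, 91, 179, 168, 140, 32 and 62 by DESeq2, and 2, 17, 8, 14, 1 and 7 with the block. It ranged from 2 to 10, 10 to 28, 10 to 21, 14 to 24, 1 to 9 and 3 to 9 under the other fits, and from 7 to 17, 16 to 35, 10 to 26, 16 to 29, 1 to 7 and 7 to 19 without single mice. Every mouse had at least 1923 reads on each of the 3 genes, and the precision was limited by 3 mice per group.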
